A study of Mus musculus with 6 samples.

Results

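Adipocyte marker genes were measured in whole mouse intervertebral discs (IVDs), the joints between the vertebrae, by RNA-seq at postnatal day 20 (P20). The markers were the 10 gene symbols Adipoq, Plin1, Plin4, Fabp4, Cidec, Pparg, Cfd, Lpl, Ucp1 and Car3, taken by name from the 43472 symbols of the count files, and all 10 passed the filter on low counts. The study asked how loss of Adgrg6, an adhesion G protein-coupled receptor, alters gene expression in the IVD before changes are visible in tissue sections. The 3 mutant libraries came from Col2Cre; Adgrg6f/f mice, in which both copies of Adgrg6 are floxed and Cre is driven by a type II collagen promoter, and the 3 control libraries from Cre (-) littermates. The control samples are called wild type in their genotype label and Col2Cre controls in their titles, so whether they carry Cre or floxed alleles is not settled by the labels. All mice were C57B6/J, each library pooled the thoracic and lumbar IVDs of 2 to 3 mice, and neither sex nor treatment is given. Recombination by Col2Cre begins in the embryo and reaches the whole IVD, and the tissue was taken whole, so a level is an average over all cell types dissected with it.

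White adipocytes store fat as triglyceride in 1 large lipid droplet. Lipoprotein lipase frees fatty acids from circulating lipoproteins, FABP4 carries them inside the cell, perilipins and CIDE proteins coat the droplet and control how it grows and is broken down, and PPARγ, together with C/EBP factors, switches this gene programme on. Adipocytes also secrete adiponectin and adipsin, and brown adipocytes burn fat as heat through UCP1. The healthy IVD has few or no blood vessels outside its margins and is not a fat depot, whereas fat cells are found in bone marrow and in the soft tissue around the spine. Several of these genes are used by other cells too, so the name of the group describes what the genes are best known for and not which cells the reads came from.

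The start regions of these genes were searched for letters that such factors are known to bind. Promoter sequences from RefSeq (GRCm38.p6), from 250 bases before to 50 bases after a transcript start, matched 7 of the 10 markers with 10 windows, and Fabp4, Lpl and Car3 were unmatched. The windows were searched on both strands for the direct repeat of PPARγ with its partner RXR (AGGTCANAGGTCA), the single core site (AGGTCA), the C/EBP letters TTGCNNAA and the TATA box letters TATAAA. The core site lies inside the direct repeat, so any repeat would also count as a core site. The repeat was in 0 of the 10 windows, against 0.0396% of 32851 RefSeq windows. The core site was in 3 of 10 windows against 16.3% of all, the C/EBP letters in 3 of 10 against 10.8%, and the TATA letters in 1 of 10 against 13.6%. Of the windows printed below, 5′ to 3′ on the strand of the gene, that of Plin1 (chr7:79732727-79733026, minus strand) and the most downstream of the 3 Pparg windows (chr6:115421816-115422115, plus strand) have C/EBP letters at 2 places each, and that of Ucp1 (chr8:83290098-83290397, plus strand) has 1 core site. They are shown because they hold a droplet protein, the regulator and the brown fat gene of the group, and the window of Adipoq (chr16:23146286-23146585, plus strand) is shown as one with none of these letters. Capitals mark the matched letters, which describe the sequence and are not shown to be bound.
Plin1: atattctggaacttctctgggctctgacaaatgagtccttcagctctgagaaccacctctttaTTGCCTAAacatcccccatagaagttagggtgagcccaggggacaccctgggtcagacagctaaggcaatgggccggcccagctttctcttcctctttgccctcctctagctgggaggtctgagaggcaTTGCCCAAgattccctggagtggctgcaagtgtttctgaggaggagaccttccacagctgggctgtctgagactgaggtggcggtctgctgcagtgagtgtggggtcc
Pparg: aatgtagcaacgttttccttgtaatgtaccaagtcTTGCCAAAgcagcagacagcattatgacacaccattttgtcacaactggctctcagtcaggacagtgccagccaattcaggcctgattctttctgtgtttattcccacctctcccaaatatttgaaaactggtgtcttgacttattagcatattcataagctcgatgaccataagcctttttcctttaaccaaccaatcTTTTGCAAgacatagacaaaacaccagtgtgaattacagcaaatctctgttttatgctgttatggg
Ucp1: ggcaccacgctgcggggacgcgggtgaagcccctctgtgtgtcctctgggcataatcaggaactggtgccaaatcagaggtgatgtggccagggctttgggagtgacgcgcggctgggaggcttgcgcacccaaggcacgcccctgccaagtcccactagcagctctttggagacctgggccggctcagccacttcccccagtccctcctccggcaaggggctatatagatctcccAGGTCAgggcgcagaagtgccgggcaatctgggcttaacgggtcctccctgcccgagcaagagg
Adipoq: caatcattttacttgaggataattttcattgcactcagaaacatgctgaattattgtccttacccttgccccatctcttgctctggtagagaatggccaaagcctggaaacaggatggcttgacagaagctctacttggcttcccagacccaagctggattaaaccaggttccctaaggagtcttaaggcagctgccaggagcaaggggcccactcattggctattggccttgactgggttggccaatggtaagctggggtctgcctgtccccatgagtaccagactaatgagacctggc

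Gene counts per library ranged from 9061491 to 12017008. Levels are given as CPM, the counts of a gene relative to all counts of its library, scaled by TMM, a normalization that evens out library composition. The reads carry no molecular identifiers, so intervals on them cover counting error only. The libraries held the tissue named in their labels: Col2a1, the type II collagen gene of cartilage, was between 62710 and 124100 CPM, and the nucleus pulposus gene Krt19 between 332.6 and 833.6 CPM. The targeted gene, listed under its older symbol Gpr126, was at 123.6, 107.8 and 94.3 CPM in the controls and at 137.9, 123.6 and 105.8 CPM in the mutants, each time in the order of replicates 1, 2 and 3, as in all values below. It was not lower in mutants (log2 fold change 0.17, unadjusted p = 0.367, edgeR), and the reason was not tested. A count over the whole gene does not single out the floxed part, so these values leave the genotype unchecked. Control replicate 1 stood apart in skeletal muscle genes: the 24 genes of the muscle list summed to 6416 CPM there against 257 to 393 CPM in the other 5 libraries, and 23 of the 24 were highest there. The fold change of each adipocyte marker is therefore given with and without that library.

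None of the 10 adipocyte markers passed the test for a difference between mutant and control IVDs. With edgeR's quasi-likelihood test, 0 of 10 had an unadjusted p under 0.05, where 7.21% of the 16152 genes tested did, 2.89% higher and 4.32% lower in mutants, and 0 of 10 passed after Benjamini-Hochberg adjustment over all genes, where 0.00619% did, a single gene. DESeq2 and limma-voom also called 0 of the 10 at an unadjusted p under 0.05. For 0 of 10 did all mutant libraries lie on one side of all controls, against 11.4% of genes tested, 5.45% with the mutants higher and 5.96% with the mutants lower. The fold changes were above 0 for 5 markers and below 0 for 5, with a median log2 fold change of -0.04 beside -0.01 over all genes. For 4 of the 10, Plin4, Fabp4, Pparg and Lpl, the 95% interval of the fold change stayed within 2-fold in either direction, and for the other 6 it reached beyond 2-fold on at least 1 side, so a change of that size was not excluded there. For Fabp4 and Lpl this rested on control replicate 1, since without it the intervals reached 1.19 and 1.36 on the log2 scale. In whole tissue, fewer cells of a type and less RNA per cell cannot be told apart.

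**Figure D1:**
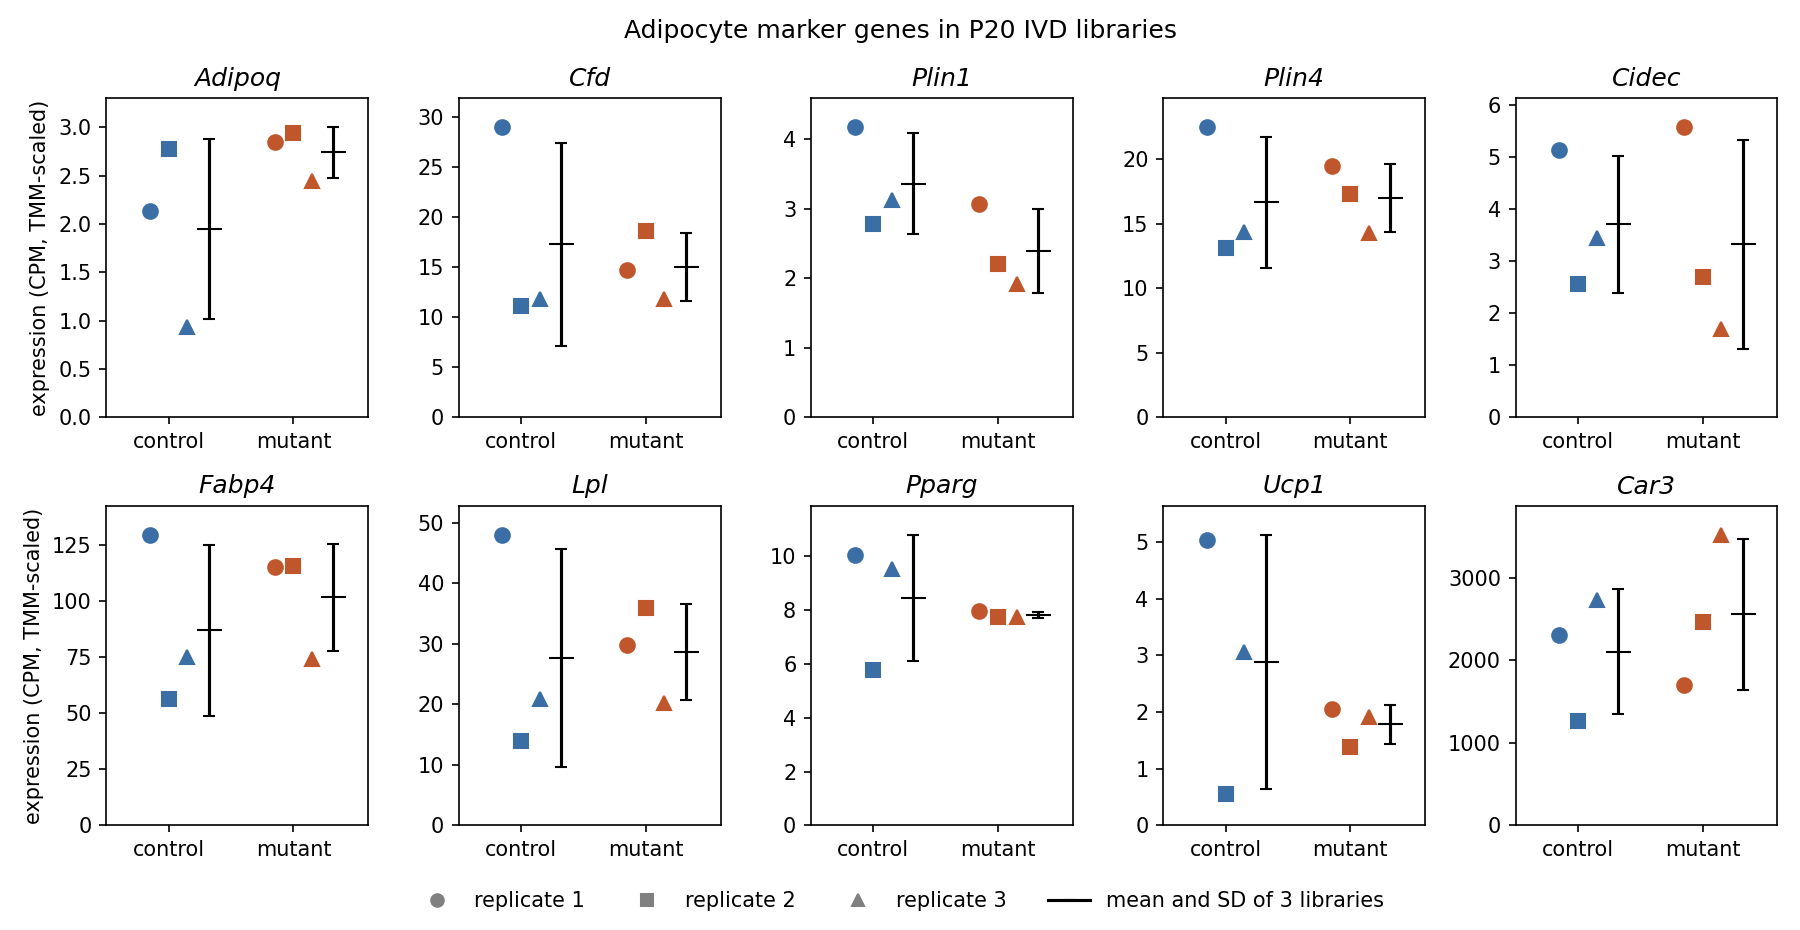
Level of each adipocyte marker in CPM (linear axis from 0, 1 panel per gene) in the 3 control and 3 mutant libraries, with points for libraries and bars for the mean and SD. The groups overlap in all 10 panels, and control replicate 1 is the highest library for 7 of them.

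The genes of the secreted proteins differed in level, and neither passed the test. Adipoq encodes adiponectin, the hormone that is most particular to fat cells (chr16:23146536-23158028, plus strand, GRCm38). It had 20, 25 and 12 counts in controls and 25, 36 and 23 in mutants. These were 2.14, 2.78 and 0.938 CPM in controls and 2.85, 2.94 and 2.44 CPM in mutants. Control replicate 3 was low and the other 5 libraries lay close together, with control replicate 2 inside the range of the mutants. The mean was 1.95 ± 0.933 CPM in controls and 2.74 ± 0.263 CPM in mutants (SD, n = 3 each), a log2 fold change of 0.50 (SE 0.55, 95% interval -0.72 to 1.73, unadjusted p = 0.383, adjusted p = 0.853 by edgeR). Without control replicate 1 it was 0.60 (unadjusted p = 0.362), without control replicate 2 0.84 and without control replicate 3 0.17.

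Cfd encodes adipsin, or complement factor D, a protease that fat cells secrete (chr10:79890853-79892655, plus strand). Its level was 29.0, 11.1 and 11.8 CPM in controls and 14.7, 18.6 and 11.8 CPM in mutants. Control replicate 1 was far above the rest, and the other 2 controls lay beside the lowest mutant. The mean was 17.3 ± 10.1 CPM in controls and 15.03 ± 3.42 CPM in mutants, a log2 fold change of -0.20 (SE 0.36, unadjusted p = 0.600, edgeR). Leaving out control replicate 1 turned the sign, to 0.41 (unadjusted p = 0.162), so the direction of Cfd rested on that library.

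None of the genes of the lipid droplet passed the test. Plin1 encodes perilipin 1, which coats the large droplets of fat cells and holds back their breakdown (chr7:79720218-79732903, minus strand). It was at 4.17, 2.78 and 3.13 CPM in controls and 3.07, 2.203 and 1.91 CPM in mutants. Mutant replicate 1 lay among the controls and the other 2 mutants below all of them. The mean was 3.36 ± 0.727 CPM in controls and 2.40 ± 0.604 CPM in mutants (log2 fold change -0.49, SE 0.47, unadjusted p = 0.322, edgeR). It was -0.28 (unadjusted p = 0.607) without control replicate 1. Plin1 was below 0 in all 12 alternative analyses, between -0.67 and -0.28.

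Plin4, another perilipin, coats newly formed droplets in fat and muscle (chr17:56100591-56109803, minus strand). It was at 22.5, 13.1 and 14.4 CPM in controls and 19.5, 17.3 and 14.2 CPM in mutants, so the mutants lay inside the range of the controls. The means were 16.7 ± 5.08 and 17.0 ± 2.63 CPM (log2 fold change 0.03, SE 0.25, unadjusted p = 0.905, edgeR), and without control replicate 1 the value was 0.33 (unadjusted p = 0.212). It was below 0 without control replicate 2 (-0.12), control replicate 3 (-0.0567) or mutant replicate 1 (-0.0419), and with the library total alone (-0.0798). Cidec fuses small droplets into large ones in white fat cells (chr6:113424634-113435760, minus strand), and it was at 5.14, 2.55 and 3.44 CPM in controls and 5.58, 2.69 and 1.70 CPM in mutants. The lowest and the highest library were both mutants. The means were 3.71 ± 1.31 and 3.32 ± 2.01 CPM (log2 fold change -0.16, SE 0.54, unadjusted p = 0.766, edgeR), and the sign turned without control replicate 1 (0.16, unadjusted p = 0.795) or mutant replicate 3 (0.15).

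The 2 genes of fatty acid handling gave the only calls, and only with a library left out. Fabp4, the fatty acid carrier of fat cells that endothelial cells and macrophages also make, lies at chr3:10204088-10208576 on the minus strand. It was at 129 CPM in control replicate 1, 56.3 in control replicate 2 and 74.9 in control replicate 3, and at 115, 115 and 74.1 CPM in the mutants. Control replicate 1 was above every mutant, and mutant replicate 3 was beside control replicate 3. The means were 86.9 ± 38.0 and 102 ± 23.8 CPM (log2 fold change 0.23, SE 0.30, 95% interval -0.44 to 0.89, unadjusted p = 0.468, edgeR). Without control replicate 1 the log2 fold change was 0.65 (SE 0.25, unadjusted p = 0.0231, adjusted p = 0.254), and without control replicate 2, the lowest library, it was -0.00954.

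Lpl encodes lipoprotein lipase, which muscle and fat cells release to the vessel wall (chr8:68880491-68907448, plus strand). It was at 48.0, 14.0 and 21.0 CPM in controls and 29.8, 35.9 and 20.2 CPM in mutants. Control replicate 1 was the highest library and control replicate 2 the lowest, with the mutants between them. The means were 27.6 ± 17.9 and 28.6 ± 7.93 CPM (log2 fold change 0.06, SE 0.39, 95% interval -0.82 to 0.93, unadjusted p = 0.891, edgeR). Without control replicate 1 the log2 fold change was 0.73 (SE 0.28, unadjusted p = 0.0263, adjusted p = 0.269). The sign was below 0 without control replicate 2 (-0.26), control replicate 3 (-0.0987) or mutant replicate 2 (-0.13), and with the library total alone (-0.0361).

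Fabp4 and Lpl were thus the 2 of 10 markers that passed an unadjusted p under 0.05 in the comparison of 3 mutants with control replicates 2 and 3, both higher in mutants, where 14.1% of 17164 genes passed, 5.25% higher and 8.89% lower. In that comparison 0 of 10 passed after adjustment, against 0.181% of genes. Genes of other cell types moved beside them. Without control replicate 1, 6 of the 10 genes of the endothelial list, 6 of 8 of red blood cell precursors and 4 of 8 of osteoblasts were higher at an unadjusted p under 0.05, against 0, 1 and 3 with it in the same edgeR test. With all 6 libraries, limma-voom called 3 endothelial and 6 red blood cell precursor genes, and edgeR with no filter on low counts called 1 and 7. Over all genes, limma-voom called 1476 and edgeR with no filter 2276, against 1164 in the main edgeR test. The summed level of the red blood cell precursor genes was 344.9, 40.1 and 102.5 CPM in controls and 280.4, 452.7 and 215.5 CPM in mutants. That of the endothelial genes was 339.7, 190.5 and 221.2 CPM in controls and 269.7, 302.3 and 314.7 CPM in mutants. Cd36, a fatty acid transporter of fat cells and capillaries, rose with a log2 fold change of 1.03 (unadjusted p = 0.00158, edgeR) without that library and had 0.61 (unadjusted p = 0.0637) with it. The part of muscle, vessels, blood or bone in the levels of Fabp4 and Lpl was not tested.

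**Figure D2:**
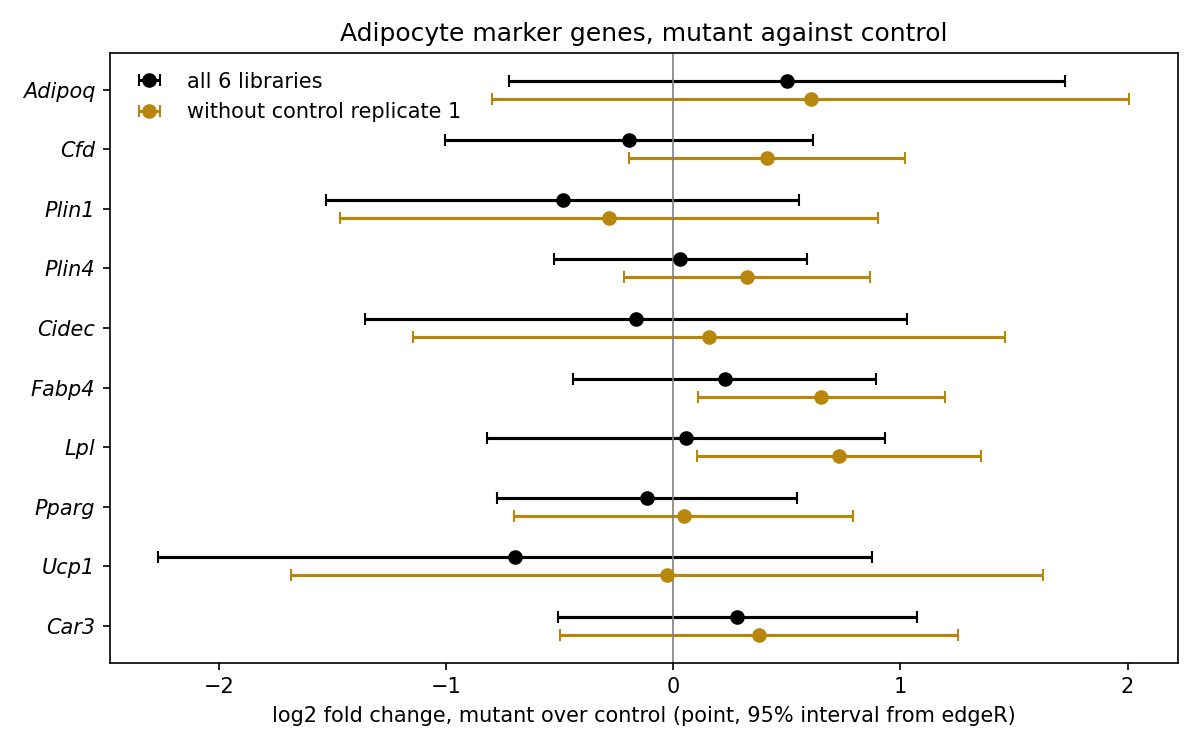
Log2 fold change of mutant over control for each adipocyte marker with its 95% interval from edgeR, for all 6 libraries in black and without control replicate 1 in gold. With all libraries every interval crosses 0, and without that library those of Fabp4 and Lpl lie above 0.

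Pparg, the master regulator of the fat cell programme, was the steadiest of the group among mutants (chr6:115360951-115490399, plus strand). It was at 10.1, 5.77 and 9.54 CPM in controls and 7.97, 7.75 and 7.76 CPM in mutants. All mutants lay between the lowest and the middle control. The means were 8.46 ± 2.34 and 7.83 ± 0.122 CPM (log2 fold change -0.11, SE 0.30, 95% interval -0.78 to 0.55, unadjusted p = 0.708, edgeR). Without control replicate 1 the value was 0.05 (unadjusted p = 0.896).

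Ucp1, the proton leak of brown fat mitochondria, varied most among the markers (chr8:83290352-83298452, plus strand). It had 47 counts in control replicate 1 (95% Poisson interval 34.5 to 62.5), 5 in control replicate 2 (1.62 to 11.7) and 39 in control replicate 3, and 18, 17 and 18 in the mutants. These were 5.03, 0.555 and 3.05 CPM in controls and 2.05, 1.39 and 1.91 CPM in mutants. The highest library was 9.06 times the lowest, both were controls, and their counting intervals did not overlap. The means were 2.88 ± 2.24 and 1.78 ± 0.349 CPM (log2 fold change -0.70, SE 0.71, 95% interval -2.27 to 0.88, unadjusted p = 0.348, edgeR). The fold change was -0.03 (unadjusted p = 0.971) without control replicate 1, -1.18 without control replicate 2, and 0.27 in limma-voom with sample quality weights.

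Car3 encodes carbonic anhydrase 3, an enzyme that is abundant in fat and slow muscle and that is also listed among nucleus pulposus genes (chr3:14863512-14872523, plus strand). Its 146230 counts over the 6 libraries outnumbered those of all other markers. It was at 2311, 1267 and 2737 CPM in controls and 1697, 2461 and 3520 CPM in mutants. Control replicate 2 was lowest and mutant replicate 3 highest, with the other 4 libraries mixed by genotype. The means were 2105 ± 756 and 2560 ± 915 CPM (log2 fold change 0.28, SE 0.36, 95% interval -0.51 to 1.07, unadjusted p = 0.446, edgeR). The value was 0.38 (unadjusted p = 0.363) without control replicate 1. Leaving out control replicate 2 gave 0.0145 and leaving out mutant replicate 3 gave -0.0112, so the size of the Car3 value rested on those libraries and its direction on the second of them. The nucleus pulposus keratin Krt19 was highest in mutant replicate 3 with 833.6 CPM and next in control replicate 3 with 788.5 CPM. These libraries also had the 2 highest Car3 levels. Krt19 was picked from the 8 genes of the nucleus pulposus list after the values were seen. Whether Car3 follows the nucleus pulposus content of the libraries was not tested.

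Set in order by level per length, the markers differed widely. CPM per kb of the principal GENCODE M21 transcript averaged 1254 in controls and 1524 in mutants for Car3, 96.9 and 113 for Fabp4 and 18.8 and 16.3 for Cfd. The ranges over the 6 libraries did not overlap between Car3, Fabp4, Cfd and the next gene, Lpl, which had 6.71 and 6.96 CPM per kb. From Lpl on, each gene overlapped its neighbour in the order Lpl, Pparg, Plin4, Cidec, Adipoq, Ucp1 and Plin1. With the length of all exons of a gene in place of the principal transcript, an alternative chosen after seeing the data, Fabp4 had 19.4 and 22.6 CPM per kb and overlapped Cfd with 18.8 and 16.3, and Plin4 and Pparg came before Lpl, while Car3 still stood above the rest. By principal transcripts the lowest marker was Plin1, with 1.19 and 0.851 CPM per kb in controls and mutants. Adipoq, Plin1, Cidec and Ucp1 were the 4 lowest markers by either length. Leptin (Lep), from the list of other fat cell genes, had a count in only 2 of the 6 libraries, at 0.111 and 0.163 CPM.

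**Figure D3:**
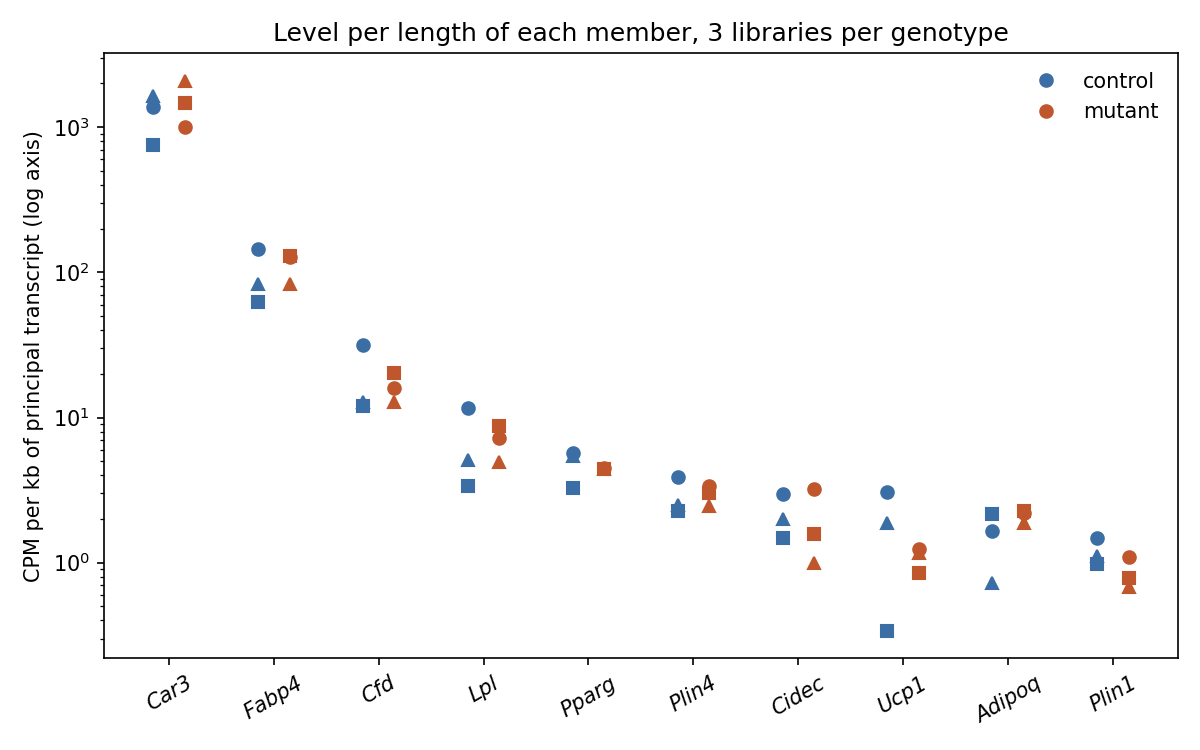
Level per length of each adipocyte marker in CPM per kb of its principal transcript (log axis), with control libraries in blue and mutant libraries in orange-red, and circles, squares and triangles for replicates 1, 2 and 3. At this length Car3, Fabp4 and Cfd stand apart from each other and from the rest, with Fabp4 and Cfd overlapping when all exons are used, while the 7 genes from Lpl down overlap with their neighbours.

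For each of the 10 markers, the range of the 3 controls was wider than the difference between the means of the genotypes. Control replicate 1 was the highest library for 7 of the 10 markers, against 15.6% of genes tested, and control replicate 2 the lowest for 7 of 10, against 13.9%. The level in control replicate 1 over the median of the other 5 libraries was 2.63 for Ucp1, 2.46 for Cfd, 2.29 for Lpl, 1.91 for Cidec and 1.73 for Fabp4. It was 1.56 for Plin4, 1.504 for Plin1, 1.30 for Pparg, 0.939 for Car3 and 0.771 for Adipoq. A ratio of at least 1.5 held for 7 of 10 markers and for 7.53% of genes tested. Summed over the 9 markers other than Car3, the level was 255, 109 and 142 CPM in controls and 201, 204 and 136 CPM in mutants. Control replicate 1, the library with the muscle genes, was thus highest in this sum and control replicate 2 lowest, and the part of muscle or of the fat between muscle fibres was not tested. With control replicate 1 left out, 8 of 10 fold changes were above 0, with a median of 0.35 beside 0.004 over all genes. Without control replicate 2, Plin1 (-0.61), Plin4 (-0.12), Fabp4 (-0.00954), Cidec (-0.38), Pparg (-0.33), Cfd (-0.43), Lpl (-0.26) and Ucp1 (-1.18) were below 0. Adipoq (0.84) and Car3 (0.0145) were above 0 there, so the balance of signs depended on which control was left out.

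**Figure D4:**
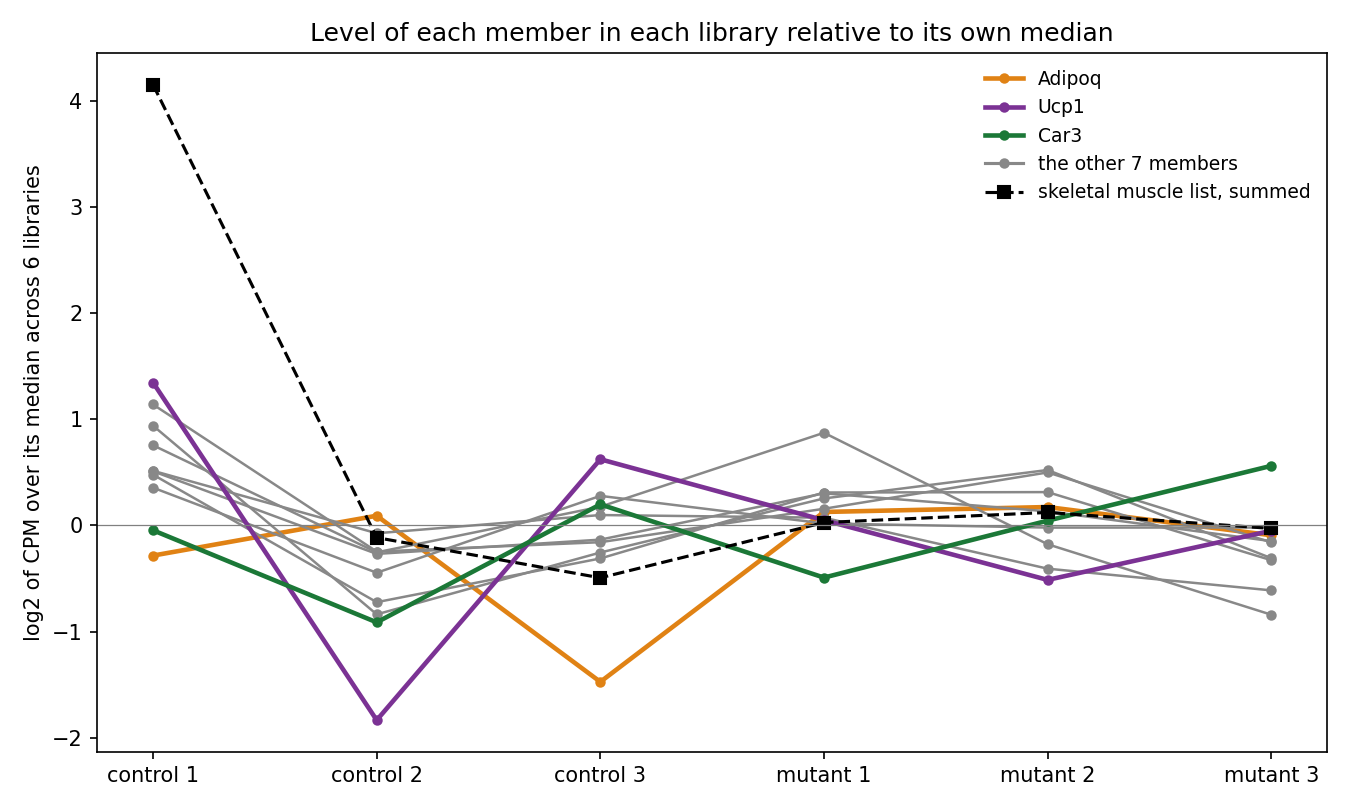
Level of each adipocyte marker in each of the 6 libraries relative to its own median over them (log2 scale). The black dashed line is the summed skeletal muscle list, relative to its own median. Control replicate 1 lies above the others for 7 of 10 markers and control replicate 2 below them for 7 of 10.

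Beyond the markers, the regulators of the fat cell programme gave 1 gene higher and 1 lower at an unadjusted p under 0.05 among 11 tested. Of all genes tested, 2.89% were higher and 4.32% lower at that threshold. Cebpd, an early C/EBP factor of fat cell formation, rose from 13.8 ± 1.61 to 23.5 ± 4.48 CPM (log2 fold change 0.77, SE 0.21, unadjusted p = 0.00413, adjusted p = 0.629, edgeR). All 3 mutants were above all 3 controls, as for 5.45% of genes tested. The call of Cebpd held with each library left out. Ppargc1a, a coactivator that drives mitochondrial genes, fell from 2.77 ± 1.28 to 0.683 ± 0.471 CPM (log2 fold change -2.002, unadjusted p = 0.0170), a call that was lost when control replicate 3 or either of the first 2 mutant replicates was left out. Cebpa, the C/EBP factor of mature fat cells, was 0.79 higher on the log2 scale (unadjusted p = 0.0651).

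Among 25 tested of 30 other fat cell genes, 1 was higher and 2 were lower, where 2.89% and 4.32% of all genes tested were. Without control replicate 1 the count of calls was 7 of 26, 4 higher and 3 lower, where 5.25% and 8.89% of all genes were. The count was 1 without control replicate 3 or without mutant replicate 1. Acvr1c, an activin receptor (ALK7) of fat cells, fell from 2.56 ± 0.289 to 0.718 ± 0.141 CPM (log2 fold change -1.82, SE 0.56, unadjusted p = 0.00862, edgeR), lower in 3 of 3 mutants and with each library left out. Klb, the FGF21 co-receptor, fell by 2.595 on the log2 scale (unadjusted p = 0.0233), with 0 counts in mutant replicate 2, and Aoc3, an amine oxidase of fat cells and smooth muscle, rose by 0.62 (unadjusted p = 0.0364). Either of these calls was lost without control replicate 3 or mutant replicate 1, that of Klb also without mutant replicate 2 and that of Aoc3 also without control replicate 2. The lipases Lipe and Pnpla2, which break down stored triglyceride, had log2 fold changes of 0.02 and -0.09.

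Of the brown fat list, 2 of 10 tested genes were lower and 0 higher, where 4.32% of all genes tested were lower and 2.89% higher. Cidea, a droplet protein of brown fat, was at 4.92, 6.11 and 3.99 CPM in controls and 2.85, 1.80 and 1.06 CPM in mutants. Its mutants all lay below all controls, as for 5.96% of genes tested. It fell by 1.39 on the log2 scale (SE 0.49, unadjusted p = 0.0175, adjusted p = 0.676, edgeR) and by 1.38 (unadjusted p = 0.0295) without control replicate 1, and lost its call without control replicate 2 or mutant replicate 3. Cox8b, a mitochondrial subunit of brown fat and muscle, fell by 1.72 (unadjusted p = 0.0146), but it was at 24.8 CPM in control replicate 1 against 3.07 to 6.96 CPM elsewhere, and its log2 fold change was -0.60 (unadjusted p = 0.190) without that library. Dio2, which activates thyroid hormone in brown fat, stood at 0.24 on the log2 scale (unadjusted p = 0.382). Elovl3, a brown fat elongase, had a count in control replicate 1 alone, at 0.107 CPM.

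Calls among the other lipid genes stood beside 2.89% of all genes tested that were higher and 4.32% that were lower. In lipid synthesis 1 of 9 was lower, Acacb, the mitochondrial acetyl-CoA carboxylase (log2 fold change -0.47, unadjusted p = 0.0497), and Scd2, Fasn and Scd1 stayed between -0.02 and 0.15. The coat genes of droplets in cells of all kinds gave 0 calls of 7 tested, with Plin3 at 0.12, Bscl2 at -0.07 and Plin2 at 0.39 on the log2 scale. Among the partners of lipoprotein lipase 1 of 7 was higher, Vldlr, a lipoprotein receptor (0.68, unadjusted p = 0.0294), while Gpihbp1, which holds the enzyme on capillaries, had 0.32 (unadjusted p = 0.186). Of the other fatty acid binding proteins 0 of 2 tested passed, with Fabp5 at 0.42 (unadjusted p = 0.134) and Fabp7 at 0.10 (unadjusted p = 0.753). The calls of Acacb and Vldlr were each lost without control replicate 1, control replicate 3, mutant replicate 1 or mutant replicate 2.

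Of the adipokine receptors 1 of 4 was higher, the adiponectin receptor Adipor1, from 106.2 ± 7.21 to 139.9 ± 18.9 CPM (log2 fold change 0.40, unadjusted p = 0.0472, edgeR), a call lost with any library left out other than control replicate 1 and mutant replicate 2. Adipor2 had -0.08 and the leptin receptor Lepr -0.18. Of the other carbonic anhydrases 1 of 9 was higher and 1 lower. Beside both lists, 2.89% of all genes tested were higher and 4.32% lower. Car2, the enzyme of red cells and osteoclasts, rose from 7.68 ± 3.50 to 16.2 ± 4.27 CPM (log2 fold change 1.08, SE 0.35, unadjusted p = 0.0105), which held with each library left out. Car12, bound to the cell surface, fell from 109.9 ± 36.7 to 65.6 ± 11.2 CPM (-0.74, unadjusted p = 0.0130), and lost its call without control replicate 1 (-0.43, unadjusted p = 0.0685) or mutant replicate 1.

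Cells that could hold or give rise to fat cells were read from 2 lists, beside 2.89% of all genes tested that were higher and 4.32% lower. Of marrow stromal genes 1 of 6 was higher, the chemokine Cxcl12, at 60.2, 28.0 and 31.2 CPM in controls and 81.3, 66.5 and 47.7 CPM in mutants (log2 fold change 0.71, unadjusted p = 0.0385, edgeR). This call was lost without control replicate 2, control replicate 3, mutant replicate 1 or mutant replicate 2. Without control replicate 1 the log2 fold change of Cxcl12 was 1.16 (unadjusted p = 0.000657, edgeR). Of fat cell progenitor genes 0 of 5 passed, with Dlk1 at 0.38, Ly6a at -0.02 and Cd34 at 0.18 on the log2 scale. Among genes of other cell types, 19 of 23 muscle genes were lower in mutants with all libraries, and 0 lower and 6 higher without control replicate 1. Over all genes tested, 7.21% passed with all libraries and 14.1% without that library. With all libraries, the counts passing were 0 of 10 for endothelium, 1 of 9 for macrophages, 1 of 8 for red blood cell precursors, 2 of 10 for neutrophil precursors, 1 of 8 for nerve and glia, 4 of 8 for osteoblasts, 2 of 6 for tendon and outer annulus, 1 of 10 for disc and cartilage and 0 of 7 for nucleus pulposus. They became 6 of 10 for endothelium, 6 of 8 for red blood cell precursors, 5 of 8 for osteoblasts, 0 of 8 for nerve and glia and 0 of 10 for disc and cartilage when control replicate 1 was left out, and were unmoved for the other lists. In the 6 other fits with all libraries, the call of Acacb held in 1, of Adipor1 in 3, of Vldlr in 4, of Aoc3, Cox8b and Cxcl12 in 5, and of Cebpd, Ppargc1a, Acvr1c, Klb, Cidea, Car2 and Car12 in 6. In the edgeR test with all 6 libraries, 0 genes of any of these lists passed after adjustment.

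The genes whose log2 CPM followed the mean of the 10 markers most closely over the 6 libraries, out of 15950 compared, were Eif2ak3 (Pearson r = 0.989), Sec61a2, Ddx11, Adrbk2, 5830444B04Rik, Fzd4, Eps8, A830052D11Rik, Dlgap5 and Ttll4 (r = 0.966). They were 10 of 113 genes with r above 0.9, and over so few libraries such values only describe these libraries, with control replicate 1 high and control replicate 2 low in each of the 10. Fzd4, for example, was at 5.57, 0.999 and 1.95 CPM in controls and 3.07, 3.10 and 1.27 CPM in mutants. The closest to Adipoq were Dctn3 (r = 0.991), Tmem79 and Mrps31, those close to Ucp1 included Frs2 (r = 0.988) and Adhfe1, and the closest to Car3 were Abca7 (r = 0.992), Nap1l1 and Dcbld1.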

How the data were processed

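Poly(A) RNA of 6 pools of whole IVDs was sequenced in paired ends. The authors deposited raw counts per gene symbol for each library. The study's methods name Cutadapt, FastQC and HISAT2 on GRCm38, with StringTie and Ballgown, while the submitters' processing notes name STAR 2.5.3a, HTSeq and DESeq2 on mm10 or GRCm38, so the mapper is unsettled. The strand setting is not given in the sources used here, so reads of Plin4 and of Hdgfl2, which overlap on opposite strands, may not be told apart. The authors' table of the comparison (fold changes and p-values) was not used. Of all reads 40.4 to 44.2% were on genes, and those on no feature (39.4 to 43.3%), ambiguous (0.846 to 1.05%) or not aligned (12.0 to 18.9%) stayed out of library sizes.

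Counts were normalized by TMM and filtered by filterByExpr (count minimum 10), and 16152 genes were tested with edgeR 4.0.16 in R 4.3.3 (quasi-likelihood, two-sided, Benjamini-Hochberg, threshold 0.05). The methods' FPKM test could not be run on counts. With simulated data on 15769 genes, unadjusted calls recovered 80.2% of genes changed 2-fold and adjusted calls 22.9%. The changed genes were drawn at random from all genes past the filter. These shares therefore do not give the recovery for the 10 markers, whose SE reached 0.71 for Ucp1. Alternatives were RLE size factors, the library total alone, no filter on low counts, the replicate block, DESeq2 1.42.0, limma 3.58.1 (voom with quality weights) and each library left out. Levels per length used the longest principal transcript of GENCODE M21 (GRCm38). The members and the other 21 lists were chosen with earlier results of these data known. The 10 members were named in full, and of each fat, lipid or carbonic anhydrase list the genes with an unadjusted p under 0.05, else the 3 most abundant. Others named beside them were chosen after their values were seen, and lists of other cell types are given by counts. For the likeness in pattern, the rule took the 10 genes with the highest correlation (prior count 2) to the members' mean and the 3 highest for Adipoq, Ucp1 and Car3, of which 1 gene is not reported here. Pools were separate mice, so p-values measure the spread between pools.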

Additional observations from a re-analysis of the deposited data

How the results depend on the processing

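Over the 10 adipocyte markers and 12 alternatives, 101 of 120 fold changes kept their direction and stayed short of an unadjusted p under 0.05, 2 passed it (Fabp4 and Lpl without control replicate 1) and 17 changed sign, none of them past the threshold. With the library total alone, Plin4 had -0.0798 and Lpl -0.0361 on the log2 scale. In limma-voom with quality weights, Pparg had 0.0536, Cfd 0.0362 and Ucp1 0.27. The sign stayed there for Adipoq (0.50), Plin1 (-0.46), Plin4 (0.12), Fabp4 (0.36), Cidec (-0.29), Lpl (0.35) and Car3 (0.61). With each library left out, the log2 fold change ranged from 0.17 to 0.84 for Adipoq, -0.67 to -0.28 for Plin1, -1.18 to -0.03 for Ucp1, -0.12 to 0.33 for Plin4, -0.00954 to 0.65 for Fabp4, -0.71 to 0.16 for Cidec, -0.33 to 0.0451 for Pparg, -0.43 to 0.41 for Cfd, -0.26 to 0.73 for Lpl and -0.0112 to 0.54 for Car3, and the number of markers with an unadjusted p under 0.05 from 0 to 2. The cause was not tested. Over all genes, the number with an unadjusted p under 0.05 was 1164 and became 2276 with no filter on low counts and 618 to 2427 with each library left out. The number past the adjusted threshold was 1 and became 245 with no filter, 58 in DESeq2, 0 in limma-voom and 0 to 31 with each library left out. With the replicate number as a block it became 0, 1002 genes had an unadjusted p under 0.05, and 0 of the 10 markers did. The deviations of same-numbered libraries from their group means correlated at 0.159, -0.132 and 0.102. With 3 libraries per group such values cannot decide whether the numbers pair the samples, so pairing is not settled. The muscle list had 19 calls and 0 to 23 in these other fits, and each other list 0 to 7 calls under any alternative. The summed CPM of the markers was 466 higher in mutants, 11.5 higher without Car3, 262.5 higher with the library total alone and 7.95 to 887 higher with each library left out, beside an SD between libraries of 793 in controls and 881 in mutants. At 12 to 49 counts per library, apart from 5 counts of Ucp1, counting error alone limits what Adipoq, Plin1, Cidec and Ucp1 can show.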
